A study of Mus musculus with 8 samples.

Results

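The 9 transcription factors followed here through the ribosome-bound and total mRNA of young and old mouse eggs were Pou2f2, Pou5f1, Figla, Sohlh1, Nobox, Lhx8, Taf4b, Tbpl2 and Foxo3. Pou2f2 was chosen because of its difference between old and young in the ribosome-bound fraction, so its values there and its translation efficiency are given as a description without a test. The other 8 genes were chosen by their role in the oocyte, with earlier results of these data known. Of the 9 genes, 6 had a row in both expression tables, out of 8537 genes in both. Pou5f1 had a row in the input table only, and Figla and Sohlh1 had none in either table and were not analysed here.

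The samples were ovulated metaphase II (MII) oocytes of C57BL/6 females of the genotype RiboTagF/F;Zp3-Cre. In these mice the Zp3 promoter drives Cre in growing oocytes, which places an HA tag on the ribosomal protein RPL22. Young females were 1 month old and old females were retired breeders of 12 to 15 months, so age and breeding history cannot be told apart. All females, young and old, received 5 IU of PMSG and then 10 IU of hCG 48 h later, and oocytes were retrieved 13 h after hCG. Each of the 4 pools (2 old, 2 young) held 200 oocytes, and 10% of each lysate served as input (total mRNA) while the remainder went into the HA immunoprecipitation (HA, ribosome-bound mRNA). In such pools, fewer transcripts in each oocyte and fewer oocytes carrying a transcript cannot be told apart.

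Transcription is shut down in the MII oocyte, and the mRNAs stored during growth are translated or held back through elements in their 3'-UTRs. FIGLA, SOHLH1, NOBOX and LHX8 are known as regulators of the oocyte gene program in early follicles, TAF4B and TBPL2 as oocyte-enriched parts of the transcription initiation machinery, and FOXO3 as a brake on the activation of primordial follicles. POU5F1 (OCT4) is a pluripotency factor, and POU2F2 (OCT2) is a related octamer-binding factor best known from B cells.

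The study asked whether mRNA translation is altered in old eggs, with a focus on the cytoplasmic polyadenylation element (CPE), a U-rich 3'-UTR motif bound by CPEB1. The 3'-UTRs of the members are therefore shown first. CPEs were searched as TTTTAT or TTTTAAT on the transcribed strand of the longest annotated 3'-UTR in GRCm38. Of the 6 members in both tables, Pou2f2 (3 CPEs in 5619 bases), Taf4b (4 in 2231 bases) and Foxo3 (5 in 4490 bases) held at least 1 CPE. Nobox (281 bases), Lhx8 (669 bases) and Tbpl2 (266 bases) held none, and neither did Pou5f1 (221 bases), Figla (120 bases) or Sohlh1 (162 bases). Among all 8208 genes of the HA table with an annotated 3'-UTR, 70.3% held at least 1, with a median 3'-UTR length of 1528 bases. The 3'-UTRs without a match were all shorter than that median. Per 1000 bases, Taf4b had the most CPEs of the members (1.79), before Foxo3 (1.11) and Pou2f2 (0.53). The median gene of the HA table had 1.02.

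The CPEs of Pou2f2 and Foxo3 are printed because these are the 2 members whose HA values were higher in both old pools. Those of Taf4b, whose log2 difference in HA was negative (-2.13), are not printed. A link between CPEs and HA differences was not tested. Each printed CPE is given in a window of 30 bases with the element in capitals. All lie on the minus strand of their chromosome, inside the 3'-UTR, and are written 5' to 3' as in the mRNA, with T for U.
Pou2f2, chr7:25089950-25089979: gaagttgtccaTTTTAATttcctggaaagc
Pou2f2, chr7:25089115-25089144: ctatctcatcgtTTTTATtttgtggtctgt
Pou2f2, chr7:25088393-25088422: actccgctacctTTTTATacgttggggaaa
Foxo3, chr10:42185717-42185746: gggtatttcttcTTTTATttggtagaaaat
Foxo3, chr10:42184805-42184834: gtgtataaaataTTTTATcatgtacagcaa
Foxo3, chr10:42184486-42184515: ttccactctgccTTTTATggaatctgtacg
Foxo3, chr10:42182772-42182801: agtgttgagttTTTTAATtaaaagcagacc
Foxo3, chr10:42182528-42182557: tctcttgttgaaTTTTATtcatttgtattc
The last CPE began 1067 bases before the annotated 3' end in Pou2f2 and 705 bases before it in Foxo3. Over the HA table, 20.9% of genes had a last CPE within 100 bases of the end. For comparison, the polyadenylation signals (AATAAA or ATTAAA, in capitals) found within the last 50 bases of Pou2f2, Foxo3 and Nobox are given, the last as a 3'-UTR with no CPE.
Pou2f2, chr7:25087353-25087382: caaaatcaaaaaAATAAAaaactaaaaact
Foxo3, chr10:42181850-42181879: atgacgcatgtaAATAAAgctttggtgaca
Nobox, chr6:43303697-43303726: gtgcatgcaataAATAAAacagtaactact
A match is a description of the letters, and the end of the transcript that these oocytes used was not measured.

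The deposited values are CPM (reads on a gene relative to library size) after TMM scaling, which was set apart for the 4 HA libraries and for their inputs. Reads on listed genes numbered 37817382 to 59688578 in HA and 38276453 to 60052814 in input, and 3 reads were worth at most 0.111 CPM. These floors cover counting error only. The lowest HA value of a member, 3.94 CPM for Taf4b in old pool 1, rested on 166 reads. All 14 oocyte markers examined were measured in both tables, summing to 12674 CPM or more in each HA library. Of 20 granulosa and cumulus markers, 6 had a row in the HA table and Foxl2 and Amh had none. The spread between pools was larger in old than in young, since the median gene differed by 2.45-fold between the 2 old HA libraries and by 1.70-fold between the 2 young ones. Old and young were compared with limma on log2(CPM + 1) with Benjamini-Hochberg adjustment over all genes, a scale that understates the change of low genes. For a single gene, the smallest two-sided p of an exact permutation test over these pools is 0.333.

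Pou2f2 (ENSMUSG00000008496.19, chr7:25087344-25179726 in GRCm38, minus strand) had the largest difference of any member in the ribosome-bound fraction. In HA it was at 546 CPM in old pool 1 and 571 CPM in old pool 2, against 68.3 CPM in young pool 1 and 36.4 CPM in young pool 2. Both old pools stood far above both young pools, and the old pools were nearly equal. The means were 558 ± 17.8 CPM in old and 52.3 ± 22.5 CPM in young (SD, n = 2 each), a ratio of 10.7. On the log2 scale the HA difference was 3.46 with an SE of 0.55, and the values rested on 2065 to 22978 reads.

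In input, Pou2f2 was at 148 CPM and 89.1 CPM in the old pools and at 91.5 CPM and 141 CPM in the young pools. The ages overlapped, with each age holding a pool near 90 CPM and a pool above 140 CPM. The log2 difference in input was 0.02 with an SE of 0.40 (limma, adjusted p = 0.996). Its interval was therefore wide, and the sign turned without old pool 1 (-0.35) or young pool 1 (-0.29) and under quantile (-0.10) and same-sum scaling (-0.17).

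The translation efficiency (TE), HA CPM over input CPM of the same pool, was 3.70 and 6.41 for Pou2f2 in the old pools and 0.747 and 0.259 in the young pools. The median gene had a TE between 0.572 and 0.729 in these pools. Pou2f2 thus sat at percentile 91.9 and 95.2 of all genes in the old pools, and at percentile 49.7 and 14.6 in the young pools. The log2 difference in TE was 3.44 with an SE of 0.78, close to that of HA. Over 14 settings of scaling, filter, test and omitted pool the HA difference of Pou2f2 ranged from 2.82 to 3.90. Gene-level counting also took in introns, and 2 other genes lie within the span of Pou2f2, Mir6537 and the opposite-strand D930028M14Rik, which overlapped 0.4% of its exon bases.

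**Figure D1:**
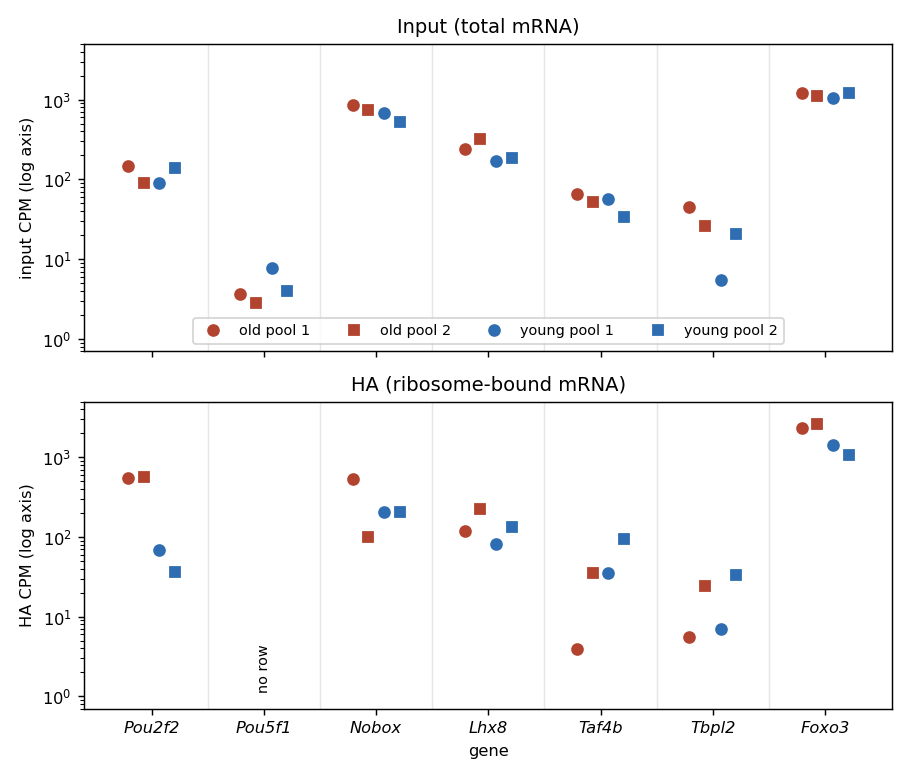
CPM (log axis) of the 7 measured members in each pool, with input above and HA below; red marks are old and blue marks young pools, circles pool 1 and squares pool 2. Pou2f2 in HA sits at 546 and 571 CPM in old and at 68.3 and 36.4 CPM in young, whereas its input values overlap.

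Markers of other cell types are given beside Pou2f2, those of blood cells first because POU2F2 is a B cell factor. Of 16 such markers only Ighm and Pax5 had a row in the HA table, and Cd79a, Cd79b, Ms4a1 and Ptprc had none in either table. Ighm, the heavy chain of IgM, was at 71.9 CPM and 24.1 CPM in old HA and at 41.6 CPM and 128 CPM in young HA. Pax5, a B cell commitment factor, was at 3.25 CPM and 0.296 CPM in old HA and at 14.9 CPM and 3.10 CPM in young HA. Summed over both genes, the markers were at 24.4 to 75.2 CPM in old HA and at 56.5 to 131 CPM in young HA, and the ages overlapped. In input, Pax5 was at 71.8 CPM and 29.7 CPM in old and at 4.51 CPM and 23.3 CPM in young. Both old pools of Pax5 were higher (log2 difference 2.03, limma, unadjusted p = 0.0525). H2-Aa, measured in input only, went the other way, with 0 and 0.361 CPM in old and 6.33 and 10.3 CPM in young. Its log2 difference was -2.97 (limma, unadjusted p = 0.00954, adjusted p = 0.778), and that of Ighm was 0.25. The 6 granulosa and cumulus markers measured in HA summed to 86.5 and 100.3 CPM in old and to 253 and 250.1 CPM in young. Of these 6, 4 had a negative log2 difference, Gata4 and Ptgs2 with an unadjusted p under 0.05 (limma), while Vcan (0.87) and Fshr (0.12) had a positive one. Cyp19a1 and Gata4 made up most of the sum. Of 12 oviduct and stromal markers, the endothelial gene Pecam1 alone had a row in the HA table, at 129 and 344 CPM in old and at 109 and 63.1 CPM in young. Both old pools of Pecam1 were higher, as for Pou2f2 and Foxo3 (log2 difference 1.33 in HA and 1.75 in TE). This position was held by 17.2% of all genes in HA. The part of other cell types in any result here was not tested.

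Of the 16 POU family genes listed, 5 had a row in the HA table. Pou2f1, the widely expressed relative of Pou2f2, was at 128 and 193 CPM in old HA and at 109 and 227 CPM in young HA, so the ages overlapped. Pou4f1, a neuronal POU factor, had an unadjusted p of 0.0111 in input (limma, adjusted p = 0.778), with 271 and 171 CPM in old and 113 and 39.7 CPM in young. It was the 1 POU gene of 6 with an unadjusted p under 0.05 there, where 2.71% of all genes were higher in old and 3.48% lower at that threshold. The median log2 difference of the POU genes in HA was 0.73, against -0.14 over all genes, and Pou2f2 is part of it.

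Pou5f1 (ENSMUSG00000024406.16, chr17:35506018-35510772, plus strand) was the lowest member per length, with 3.66 and 2.79 CPM in old input and 7.71 and 4.00 CPM in young input. Both old pools lay below both young pools, a position held by 18.9% of genes of the input table. Its log2 difference was -0.65 with an SE of 0.99 (limma, adjusted p = 0.959), and it was -0.25 without young pool 1 and -1.05 without young pool 2. An antisense gene, Gm19553, covers 31.2% of its exon bases, and since counting ignored strand the reads of the pair cannot be told apart. Of 20 pluripotency partners listed, 11 were measured in input and 10 in HA. Lin28b, an RNA-binding inhibitor of let-7 processing, was at 2.21 and 3.22 CPM in old HA against 45.1 and 37.1 CPM in young HA (limma, unadjusted p = 0.0404, adjusted p = 0.323). In contrast, Lin28b in input was at 49.9 and 34.1 CPM in old and at 31.6 and 44.9 CPM in young.

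The bHLH factors Figla and Sohlh1 had no row in either table, whose genes all reach at least 1 CPM in at least 2 libraries before TMM scaling. Sohlh2, the partner of SOHLH1, was measured at 145 and 33.0 CPM in old HA and at 16.0 and 5.76 CPM in young HA. Its input values were 6.60 and 2.39 CPM in old and 1.76 and 21.5 CPM in young. Sohlh2 was thus above its input in 3 of 4 pools. Both old HA values were above both young ones, as for 17.2% of all genes (limma, unadjusted p = 0.0622, adjusted p = 0.367).

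Nobox (ENSMUSG00000029736.15, chr6:43303674-43309554, minus strand), a homeobox activator of oocyte genes, was high in total mRNA and lower in HA than in input in every pool. In input it was at 852 and 747 CPM in old and at 674 and 531 CPM in young. Old pools exceeded young pools by 1.33-fold in the mean (log2 difference 0.41, SE 0.24; limma, unadjusted p = 0.124, adjusted p = 0.802). In HA it was at 535 and 99.1 CPM in old and at 207 and 203 CPM in young.

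The 2 old HA values of Nobox lay on either side of the young ones and differed 5.41-fold, whereas the young values were equal within 1.02-fold. Its HA difference was 0.17 with an SE of 0.80 (limma, adjusted p = 0.973). That sign rested on old pool 1, as the difference was -1.04 without it and 1.38 without old pool 2 (unadjusted p = 0.0145), and it was also negative under quantile (-0.35) and same-sum scaling (-0.47). The TE of Nobox was 0.629 and 0.133 in old and 0.307 and 0.383 in young, below 1 in every pool. The TE difference, -0.25 with an SE of 0.72, became -1.36 without old pool 1 (unadjusted p = 0.0203) and 0.87 without old pool 2.

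Lhx8 (ENSMUSG00000096225.7, chr3:154306294-154330659, minus strand), a LIM homeobox factor, was also lower in HA than in input in all 4 pools. Input values were 241 and 324 CPM in old and 170 and 188 CPM in young, so that both old pools were higher. The difference in log2 was 0.64 with an SE of 0.29 (limma, unadjusted p = 0.0598, adjusted p = 0.778), and the unadjusted p was 0.0354 without old pool 1. In HA, Lhx8 was at 119 and 222 CPM in old and at 82.7 and 135 CPM in young. These ages overlapped, and the HA difference of 0.62 (SE 0.61, adjusted p = 0.771 by limma) was -0.018 under same-sum scaling, 0.17 without old pool 2 and 0.27 without young pool 1.

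The TE of Lhx8 was the steadiest of the 6 members, with 0.493 and 0.687 in old and 0.487 and 0.716 in young. Over the 4 pools it varied by 1.47-fold, against 4.74-fold for Nobox and 24.8-fold for Pou2f2. Its TE difference was -0.02 with an SE of 0.64, which leaves a wide interval.

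Cofactors and dimer partners of these factors gave no unadjusted p under 0.05 between ages in HA, input or TE (limma, 9 of 12 listed genes measured in HA and 10 in input, 0 called). Over all genes 4.28% were higher and 10.5% lower in HA at that threshold, 2.71% and 3.48% in input and 2.98% and 3.51% in TE, so a count of 0 among so few genes is near the background. Ldb1, the LIM-domain binding cofactor, was at 147 and 7.50 CPM in old HA and at 51.3 and 28.2 CPM in young HA. Like Nobox, it had its highest HA value in old pool 1 and its lowest in old pool 2.

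Among 25 oocyte genes that include known targets of FIGLA and NOBOX, 21 were measured in HA and 22 in input. Nlrp5, a component of the subcortical maternal complex, was the 1 gene with an unadjusted p under 0.05 in HA, with 1747 and 2383 CPM in old and 1123 and 1150 CPM in young. That p was 0.0461 and the adjusted p was 0.335 (limma), and 1 of 21 is near the share over all genes, 4.28% higher and 10.5% lower. In HA the median log2 difference of these genes was 0.40, with 15 of 21 positive, against a median of -0.14 over all genes. That background depended on expression level, since the median gene stood at 0.09 once a 10 CPM filter was applied. The share of positive genes in the whole table is not given here. Whether the higher median of the list goes with its expression level was not tested. In input the median of these oocyte genes was -0.07 against -0.03 over all genes, and 1 of 22 (Oosp1) was lower at an unadjusted p under 0.05 (limma). In TE 3 of 21 (Nlrp5, Gdf9 and Oosp1) were higher at that threshold and 0 lower, against 2.98% and 3.51% of all genes. Each of these 3 had an adjusted p of 0.739 in TE (limma).

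Taf4b (ENSMUSG00000054321.6, chr18:14783245-14900359, plus strand), an ovary-enriched subunit of TFIID, was the member that varied most on ribosomes. HA values were 3.94 and 35.6 CPM in old and 35.2 and 94.5 CPM in young. Old pool 1 stood alone at the low end, while old pool 2 and young pool 1 were nearly equal. The HA difference was -2.13 with an SE of 1.33 (limma, unadjusted p = 0.155, adjusted p = 0.569). Without old pool 1 it was -0.69, without old pool 2 it was -3.57 (unadjusted p = 0.00352), and without young pool 2 it was -1.43.

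Input of Taf4b was far steadier, at 66.4 and 52.5 CPM in old and 57.0 and 33.6 CPM in young. Its input difference was 0.42 with an SE of 0.49 (adjusted p = 0.932 by limma), and 0.05 without young pool 2 and 0.80 without young pool 1. TE was 0.0594 and 0.677 in old and 0.618 and 2.81 in young, a range of 47.3-fold over the 4 pools. The TE difference was -2.55 with an SE of 1.42 (limma, unadjusted p = 0.107, adjusted p = 0.739). It was -0.94 without old pool 1, -4.16 without old pool 2 (unadjusted p = 0.00458) and -1.48 without young pool 2. A processed pseudogene, AC133172.1, lies within the span of Taf4b.

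Tbpl2 (ENSMUSG00000061809.8, chr2:24071721-24096595, minus strand), the TBP paralog that replaces TBP in growing oocytes, was measured at 5.54 and 24.4 CPM in old HA and at 6.95 and 33.1 CPM in young HA. Within each age the pools differed more than 4-fold, and the ages overlapped. The HA difference of -0.36 with an SE of 1.54 (limma, adjusted p = 0.967) was 0.62 without old pool 1, 0.69 without young pool 2 and 0.079 under quantile scaling.

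In input, Tbpl2 was at 44.9 and 26.0 CPM in old and at 5.47 and 20.9 CPM in young, so both old pools were higher. The mean ratio was 2.69, and the log2 difference was 1.56 with an SE of 0.85 (limma, unadjusted p = 0.101, adjusted p = 0.790). It was 0.69 without young pool 1 and 2.44 without young pool 2. TE was 0.123 and 0.937 in old and 1.27 and 1.59 in young, with both old pools below both young pools. The TE difference was -1.92 with an SE of 1.56 (limma, adjusted p = 0.812), and it was -0.56 without old pool 1 and -3.28 without old pool 2 (unadjusted p = 0.0324).

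Of 23 general initiation factors listed, 20 were measured in both tables, Taf4b and Tbpl2 included. Taf2 and Taf1, subunits of TFIID, had an unadjusted p under 0.05 in HA and no factor was lower at that threshold, against 4.28% of all genes higher and 10.5% lower. Taf1 was at 273 and 249 CPM in old HA and at 75.2 and 97.2 CPM in young HA (log2 difference 1.60, SE 0.52; limma, unadjusted p = 0.0186, adjusted p = 0.297). Taf2 was at 150 and 209 CPM in old HA and at 46.2 and 13.7 CPM in young HA (log2 difference 2.75, SE 0.82; limma, adjusted p = 0.297). Other TFIID subunits lay on the side of Taf4b in HA, among them Taf13 (-2.12, SE 1.54) and Taf11 (-1.69, SE 1.37). Their unadjusted p were 0.213 and 0.259 (limma). Taf11 was at 0.0238 and 1.44 CPM in old HA and at 0.310 and 19.0 CPM in young HA, so its ages overlapped. Of the 20 factors, 9 had a positive and 11 a negative log2 difference in HA, with a median of -0.13 against -0.14 over all genes. Taf4, the broadly expressed paralog of Taf4b, was at 41.0 and 274 CPM in old HA and at 64.4 and 20.8 CPM in young HA.

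Foxo3 (ENSMUSG00000048756.11, chr10:42181841-42276755, minus strand), a forkhead factor held in check by PI3K and AKT signalling, had the highest HA level of the members per exon length. In HA it was at 2357 and 2605 CPM in old and at 1427 and 1067 CPM in young. Both old pools exceeded both young pools, with means of 2481 ± 175 and 1247 ± 254 CPM (SD, n = 2 each) and a ratio of 1.99. The log2 difference was 1.00 with an SE of 0.34 (limma, unadjusted p = 0.0225, adjusted p = 0.297). It was the 1 of 5 tested members with an unadjusted p under 0.05 in HA, against 4.28% of all genes higher and 10.5% lower. No tested member had an adjusted p under 0.05, and neither did any of the 8898 genes (0%).

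By limma, 1311 genes had an unadjusted p under 0.05 in HA, and at an adjusted p under 0.05 edgeR's likelihood ratio test called 295, its quasi-likelihood test 0 and DESeq2 508 genes on the recovered reads. No tested member was among the genes called at an adjusted p under 0.05. Without old pool 1 limma called 393 genes at that threshold, without old pool 2 it called 3, without young pool 1 it called 0 and without young pool 2 it called 634. The Foxo3 difference depended on the scaling, since the deposited TMM values put the median gene at -0.14, quantile scaling at -0.05 and equal library sums at -0.68, and Foxo3 stood at 1.00, 0.24 and 0.36. In those same scalings it was 1.14, 0.29 and 1.05 above the median gene. Without young pool 1 the unadjusted p was 0.0783 and without young pool 2 it was 0.229, with differences of 1.21 and 0.80. It was 0.0948 by edgeR's likelihood ratio test and 0.131 by DESeq2.

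Input of Foxo3 was the steadiest of all members, with 1216 and 1100 CPM in old and 1057 and 1227 CPM in young. The 4 values lay within 1.16-fold, and the log2 difference was 0.02 with an SE of 0.22 (limma, adjusted p = 0.992), a sign that turned under quantile (-0.18) and same-sum scaling (-0.17). TE was 1.94 and 2.37 in old and 1.35 and 0.870 in young. The TE difference was 0.98 with an SE of 0.37 (limma, unadjusted p = 0.0278, adjusted p = 0.739). It was 0.67 without young pool 2 (unadjusted p = 0.227), 0.84 without old pool 2 (0.0679), 0.42 under quantile scaling (0.236) and 0.53 under same-sum scaling (0.138). With the limma trend on the mean ratio, the unadjusted p was 0.223.

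In TE, Foxo3 was again the 1 of 5 tested members with an unadjusted p under 0.05, where 2.98% of all genes were higher in old and 3.51% lower. No gene of 8537 (0%) reached an adjusted p under 0.05 in TE by limma, which gave 554 genes at an unadjusted p under 0.05, and edgeR's quasi-likelihood interaction test gave 0 and 932. None of the 7 members in input had an unadjusted p under 0.05, while 1 of 10530 genes (0.0095%) reached an adjusted p under 0.05 and 651 an unadjusted one. At an adjusted p under 0.05 in input, edgeR's likelihood ratio test called 50, its quasi-likelihood test 0 and DESeq2 114 genes.

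Of 18 genes of the FOXO family and its upstream signalling, 17 were measured in both tables. Beside Foxo3, Ywhaz, a 14-3-3 protein that binds phosphorylated FOXO factors, had an unadjusted p under 0.05 in HA. With Foxo3 itself, 2 of 17 were thus higher and 0 lower, against 4.28% and 10.5% of all genes. Ywhaz was at 1205 and 1201 CPM in old HA and at 639 and 637 CPM in young HA (log2 difference 0.91, SE 0.35; limma, unadjusted p = 0.0343, adjusted p = 0.313). Foxo1, the paralog of Foxo3, was at 385 and 268 CPM in old HA and at 418 and 322 CPM in young HA, so its ages overlapped. In HA the median of the list was -0.02, against -0.14 over all genes, and in TE it was 0.20 against -0.10.

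**Figure D2:**
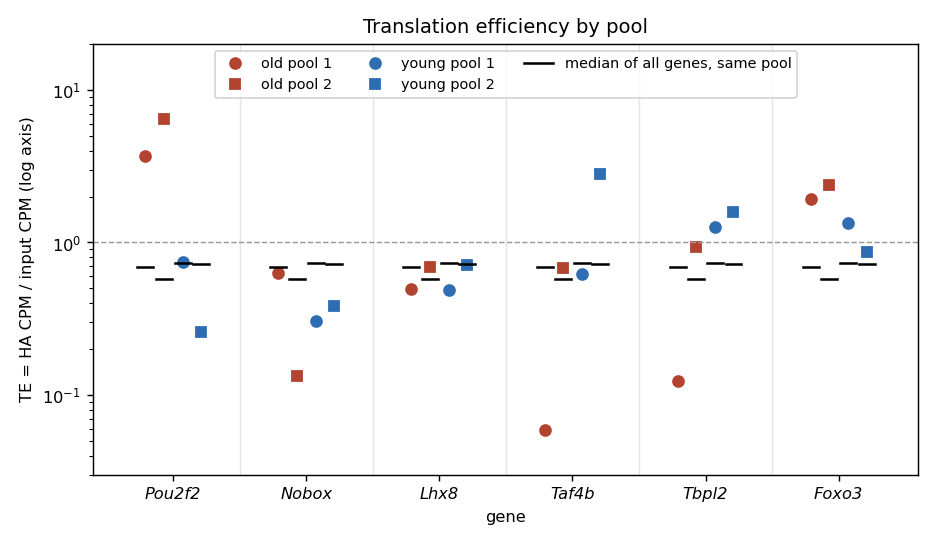
TE (HA CPM over input CPM, log axis) of the 6 members measured in both tables, by pool; red marks are old and blue marks young pools, circles pool 1 and squares pool 2, and black bars give the median of all genes in the same pool. Pou2f2 and Foxo3 are higher in both old pools, Tbpl2 is lower in both, and Nobox, Lhx8 and Taf4b overlap.

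In counts over the members, Pou2f2 and Foxo3 (2 of 6) had both old pools above both young pools in HA, as did 17.2% of all genes, and no member had both old below both young, as did 24.7% of genes. In input, Nobox, Lhx8 and Tbpl2 (3 of 7) had both old pools above, as did 16.4% of genes, and Pou5f1 (1 of 7) had both below, as did 18.9%. In TE, Pou2f2 and Foxo3 had both old pools above (17.2% of genes) and Tbpl2 both below (20.4% of genes). The position of Pou2f2 follows from how it was chosen.

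**Figure D3:**
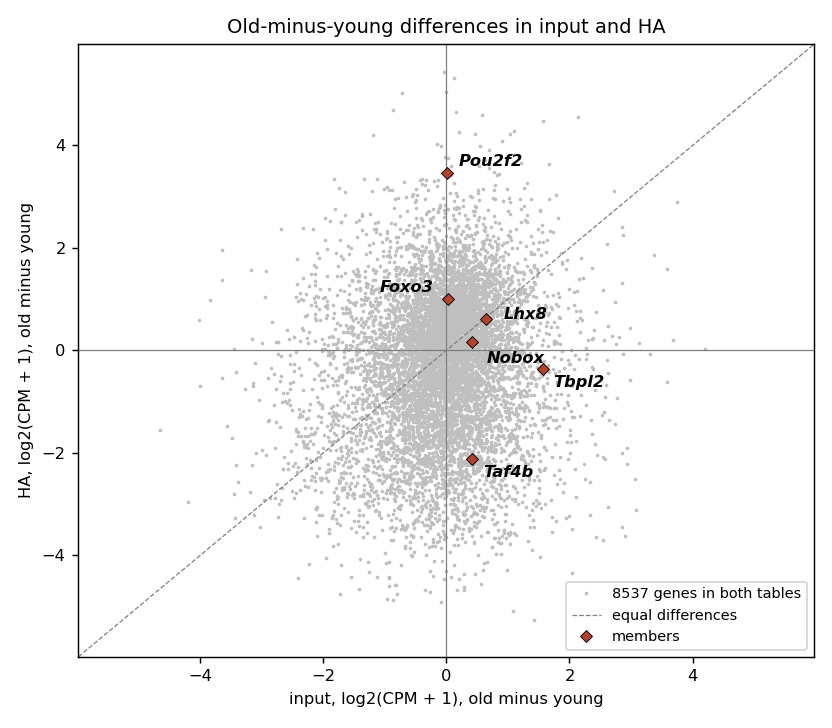
Old-minus-young differences in log2(CPM + 1) for 8537 genes in both tables (grey points), with input on the horizontal and HA on the vertical axis, the 6 members as labelled diamonds and a dashed line where both differences are equal. Pou2f2 lies at 0.02 in input and 3.46 in HA, Taf4b at 0.42 and -2.13, and Lhx8 close to the dashed line.

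HA was also set against input over all 4 pools, with age in the model, to ask which members were over- or under-represented on ribosomes. The 2 tables were scaled apart, and the median gene stood at -0.56 on the log2 scale. Nobox was lower in HA than in input, at -1.66 with an SE of 0.36 (limma, unadjusted p = 0.00144, adjusted p = 0.0656), or -1.11 relative to the median gene. The Nobox difference was negative under all 12 settings tried, from -2.22 without old pool 1 to -1.10 without old pool 2.

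Lhx8 stood at -0.77 with an SE of 0.32 (unadjusted p = 0.0425, adjusted p = 0.190 by limma), or -0.21 relative to the median gene. Its unadjusted p was 0.0530 without old pool 1, 0.256 without young pool 1 and 0.124 without young pool 2. Foxo3 stood at 0.61 with an SE of 0.19 (unadjusted p = 0.0103, adjusted p = 0.112 by limma), or 1.17 above the median gene, and without young pool 1 the unadjusted p was 0.129. These 3 of 5 tested members had an unadjusted p under 0.05, against 5.77% of all genes higher and 18.6% lower. In the main fit no tested member had an adjusted p under 0.05, against 1.52% of all genes. Taf4b stood at -0.88 (SE 0.71), and at -1.69 without old pool 2 and -0.08 without old pool 1. Tbpl2 stood at -0.49 (SE 0.78), and at 0.19 without old pool 1. Pou2f2, not tested, averaged 0.55, or 0.18 without young pool 1. Nobox and Lhx8 (2 of 6) had lower CPM in HA than in input in all 4 pools, as did 24.1% of genes, and no member had higher CPM in all 4, as did 8.06%.

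Of the oocyte genes that include FIGLA and NOBOX targets, 3 of 21 had an adjusted p under 0.05 in this comparison. Over all 8537 genes the share was 1.52%. Gdf9, an oocyte growth factor, was higher in HA (log2 0.89, SE 0.14; limma, adjusted p = 0.0363), and so was Nlrp14, of the NLRP family (log2 1.03, SE 0.19; limma, adjusted p = 0.0493). Zp1, a zona pellucida protein, was lower (log2 -1.36, SE 0.23; limma, adjusted p = 0.0385). Sall4, a zinc finger partner of POU5F1, was higher (log2 0.96, SE 0.19; limma, adjusted p = 0.0499). These calls depended on the fit, since 130 genes had an adjusted p under 0.05 in it, 16 with a pseudocount of 0.1 CPM and 0 with the limma trend on the mean ratio.

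Among 20 measured factors linked to zygotic genome activation, Crebbp and Smarca4, which modify or remodel chromatin, were lower in HA than in input, with log2 differences of -1.06 and -2.31 and adjusted p of 0.0493 and 0.0499 (limma). Smarca4 was at 10.1 and 17.4 CPM in old HA and at 83.1 and 60.9 CPM in young HA (unadjusted p = 0.0474, adjusted p = 0.338 by limma). Sp1, a general activator, was at 191 and 223 CPM in old HA and at 44.4 and 81.9 CPM in young HA (adjusted p = 0.299 by limma).

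Levels of different genes were set side by side only after division by exon length (CPM per kb), although counting also took in introns. In input, Nobox led with 348 ± 66.9 CPM per kb (SD over the 4 pools), followed by Foxo3 with 152 ± 11.2 and Lhx8 with 91.1 ± 27.2. The ranges of these 3 did not overlap. Tbpl2 (17.6 ± 11.8), Pou2f2 (14.2 ± 3.80) and Taf4b (10.2 ± 2.68) came next and could not be ordered beyond their spread. Pou5f1 was last at 2.02 ± 0.967 CPM per kb, below the median gene of the input table (4.51).

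In HA, Foxo3 came first with 246 ± 97.0 CPM per kb, then Nobox with 130 ± 94.2, Lhx8 with 55.2 ± 23.4 and Pou2f2 with 37.1 ± 35.5. Each of these overlapped its neighbour, and so did Tbpl2 (12.7 ± 9.77) and Taf4b (8.21 ± 7.34). The rank of Pou2f2 differed by age. It stood at 66.2 and 69.3 CPM per kb in the old HA libraries, and at 8.28 and 4.42 CPM per kb in the young ones. Across HA libraries, Pou2f2 lay between percentile 53.1 and percentile 92.4 of all genes per length, whereas Foxo3 stayed between percentile 97.8 and percentile 98.8.

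**Figure D4:**
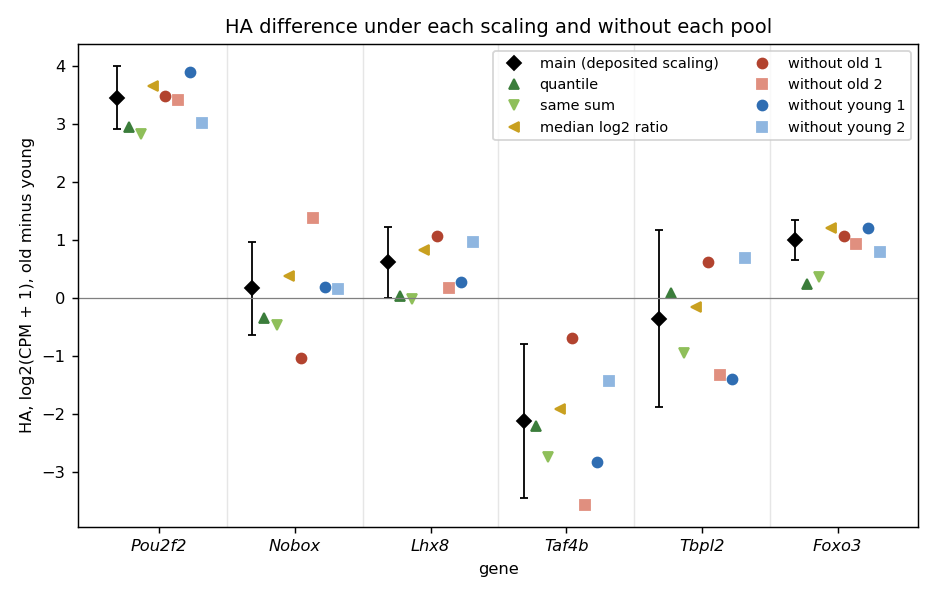
HA difference between old and young in log2(CPM + 1) for the 6 members under the deposited scaling (black diamonds, bars show the SE), 3 other scalings and without each pool in turn. Pou2f2 lies between 2.82 and 3.90 in the settings drawn, and Nobox, Lhx8 and Tbpl2 lie on both sides of 0. Pou2f2 was chosen by this difference in the same libraries, so its range is a description and not a test.

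Genes with the profile most like that of Pou2f2 over the 8 libraries were Cc2d1a (Pearson r = 0.973), Zcwpw1 (r = 0.972) and Gpatch8 (r = 0.966), out of 6335 genes with a mean of at least 10 CPM. These correlations share libraries and scaling and carry no p. Gpatch8 was at 1288 and 1890 CPM in old HA and at 443 and 324 CPM in young HA, with input between 443 and 597 CPM. Zcwpw1, a histone methylation reader, was at 76.2 and 45.2 CPM in old HA and at 3.14 and 0.370 CPM in young HA.

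For Foxo3 the most similar profiles were Hnrnph1 (r = 0.988), Fam72a (r = 0.987) and Trp53bp1 (r = 0.981). Trp53bp1, a DNA damage response protein, was at 502 and 482 CPM in old HA and at 170 and 95.5 CPM in young HA. Nobox was most like Qars (r = 0.987), Fastkd3 (r = 0.978) and Ighg3 (r = 0.974). Qars, a tRNA synthetase, was at 54.7 and 13.6 CPM in old HA and at 28.7 and 24.0 CPM in young HA, with its high and low values in the same pools as Nobox.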

How the data were processed

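RNA-Seq of 8 libraries (HA and input of 2 old and 2 young pools) was analysed. The authors trimmed (Trimmomatic 0.36), aligned to GRCm38 (HISAT2) and counted reads per gene (HTSeq, GENCODE M11) without strand, and the deposited signal values are CPM after TMM normalization, separately for HA and input. Every value was a whole multiple of 1 read (tolerance 0.01 reads), so read numbers were recovered. A filter of 10 CPM is stated, whereas the tables hold genes with at least 1 unnormalized CPM in 2 libraries. No column was left out (0).

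The members and gene lists were chosen with earlier results of these data known. Named list genes were up to 3 higher and 3 lower per comparison by unadjusted p. Some values beyond that rule (Pou2f1, Foxo1, Taf4, Taf11, Taf13, Ldb1, Sohlh2, Ighm, Pax5, Vcan, Fshr, Cyp19a1, Pecam1 between ages) were picked after they were seen, and some list genes are not reported here. The main test was limma (lmFit, eBayes with trend, two-sided) on log2(CPM + 1), and for TE and HA against input the trend followed mean expression. The tests were tested on simulated data.

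Pairing of HA with input rests on the lysate they share. Old and young pools of the same number share only the number (r of deviations 0.079 in HA and 0.027 in input), so they were not paired. The labels name separate pools but no batch. CPEs were searched in GENCODE M21, whose identifiers matched 99.8% of HA and 99.9% of input genes. Pseudocounts of 0.1 and 5 CPM, filters, scalings, edgeR, DESeq2 and omitted pools were alternatives. Versions were Python 3.11.15 and R 4.3.3 with DESeq2 1.42.0, edgeR 4.0.16 and limma 3.58.1.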

Additional observations from a re-analysis of the deposited data

Results flagged for a closer look

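Some genes lay above input in both pools of an age and below it in both pools of the other, and this crossing was not tested. Their TE differences between ages were tested, except that of Pou2f2. The adjusted p (limma) was 0.741 for Sp1, 0.739 for Oosp1, 0.812 for Tbpl2 and 0.739 for Gata4. The log2 TE difference, old minus young, was 3.44 for Pou2f2 (TE 3.70 and 6.41 in old, 0.747 and 0.259 in young). It was 1.28 for Sp1 (1.54 and 1.88 in old, 0.538 and 0.896 in young) and 1.14 for Oosp1 (2.03 and 1.58 in old, 0.753 and 0.877 in young). It was -1.92 for Tbpl2 (0.123 and 0.937 in old, 1.27 and 1.59 in young) and -3.51 for Gata4 (0.0677 and 0.0642 in old, 1.13 and 1.01 in young). Input and HA were scaled apart, so a TE of 1 has no fixed meaning.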

How the results depend on the processing

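With 2 pools per age and a wide spread between old HA libraries, only large differences were detectable. Of the members tested, 1 had an unadjusted p under 0.05 in HA, 0 in input, 1 in TE and 3 in HA against input. In HA this count was 0 under quantile and same-sum scaling, the likelihood ratio test and DESeq2, and from 0 to 3 with a pool omitted. In input it was 1 under DESeq2 and from 0 to 1 with a pool omitted. In TE it was 0 under quantile and same-sum scaling and with the trend on the mean ratio (chosen after seeing the data), and from 0 to 2 with a pool omitted. In HA against input it was 1 with that trend, and from 1 to 4 with a pool omitted. With the replicate block for old and young pools of the same number, the counts stayed 1 in HA, 0 in input and 1 in TE, while the genes with an adjusted p under 0.05 went from 0 to 9 in HA and from 0 to 5 in TE. Without the replicate block of the pool, HA against input gave 3 members.

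Signs turned in HA for Nobox (quantile -0.35, same sum -0.47, omitted pools -1.04 to 1.38), Lhx8 (same sum -0.018) and Tbpl2 (quantile 0.079, omitted pools -1.41 to 0.69). In input they turned for Pou2f2 (quantile -0.10, same sum -0.17, omitted pools -0.35 to 0.38) and Foxo3 (quantile -0.18, same sum -0.17, omitted pools -0.085 to 0.13). In TE they turned for Nobox (quasi-likelihood interaction 0.24, omitted pools -1.36 to 0.87) and Lhx8 (median ratio 0.17, interaction 0.0066, omitted pools -0.30 to 0.25). In HA against input, Tbpl2 ranged from -1.17 to 0.19 with a pool omitted. The causes were not tested. An omitted pool leaves 1 pool of that age, assumed to vary like the rest. Genes with an adjusted p under 0.05 in HA against input numbered 130, against 16 with a pseudocount of 0.1 CPM, 251 with a 10 CPM filter, 418 under quantile scaling, 0 with the trend on the mean ratio and 2 to 2359 with a pool omitted.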
